A study of Mus musculus with 2 samples.

Results

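Cytosolic ribosomal protein genes were examined in the epidermis of newborn mice that lacked the vitamin D receptor (VDR) and the calcium-sensing receptor (CaSR) in keratinocytes. Members were all probes of the raw signal table whose gene symbol begins with Rpl or Rps and a digit, or is Rplp0, Rplp1, Rplp2 or Rpsa, without the Rps6k kinases. The rule took 78 of 25697 probes, which stand for 63 of 17872 genes, 36 of the large subunit and 27 of the small subunit. The tested mice (DKO) carried floxed alleles of both receptor genes (VDR fl/fl CaSR fl/fl) and a Cre recombinase driven by the keratin 14 (K14) promoter, and their littermates (CON) carried the same floxed alleles without Cre. All mice were of the C57BL6 strain and at postnatal day 5, and epidermis was lifted off the dermis of back skin with dispase. Cells of the epidermis that do not use the K14 promoter, such as immune cells and melanocytes, are not targets of this Cre. RNA of 3 mice was combined for each genotype and hybridised to 1 Illumina array, so no difference given here has a replicate check, no test between genotypes was made, and sizes are descriptions of 2 arrays.

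Ribosomes consist of a small subunit, which reads the messenger RNA, and a large subunit, which joins amino acids and sends the chain out through an exit tunnel. Their proteins are made in matched amounts, and their messages mostly begin with a C and a run of pyrimidines, the 5′ terminal oligopyrimidine (TOP) tract, through which mTOR signalling sets how well they are translated. In mouse skin, mutations of Rps19 and Rps20 are known for darkened skin, which arises through p53 in keratinocytes.

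Signal is given on the log2 scale after background correction and quantile normalization, and a difference is always DKO minus CON. A probe counted as above background at a detection p-value under 0.01, which compares it with negative controls of its own array and not one genotype with the other. Each gene was represented by its brightest probe, and 57 of the 63 genes passed on at least 1 array, 31 of 36 for the large and 26 of 27 for the small subunit. The 6 others were Rpl14, Rpl17, Rpl3l, Rpl6, Rplp2 and Rps23, which were not well above background on either array. Rpl14 came nearest, with a raw signal of 145.3 on DKO and 126.9 on CON and detection p-values of 0.0213 on DKO and 0.487 on CON. Rpl3l is a relative of Rpl3 that is known from skeletal and heart muscle. Signals of different probes are not compared here as levels, since each probe binds with its own strength, and many ribosomal protein genes have near-identical pseudogenes whose transcripts a probe could also catch.

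Under quantile normalization the ribosomal protein genes of both subunits were centred on no difference between the DKO and the CON array. The median difference was 0.00 over the 31 large subunit genes and 0.00 over the 26 small subunit genes, against -0.02 over all 8472 genes above background. For the large subunit the middle 50% of genes lay between -0.05 and 0.11, and for the small subunit between -0.11 and 0.14, whereas all genes spread from -0.26 to 0.21. Of the 57 genes, 26 were higher in DKO, 26 were lower and 5 were equal. By background, 47.1% of all genes above background were higher and 52.6% were lower. Within 0.25 of no difference lay 49 of the 57 ribosomal protein genes (86.0%), 28 of 31 in the large and 21 of 26 in the small subunit, against 52.5% of all genes.

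**Figure D1:**
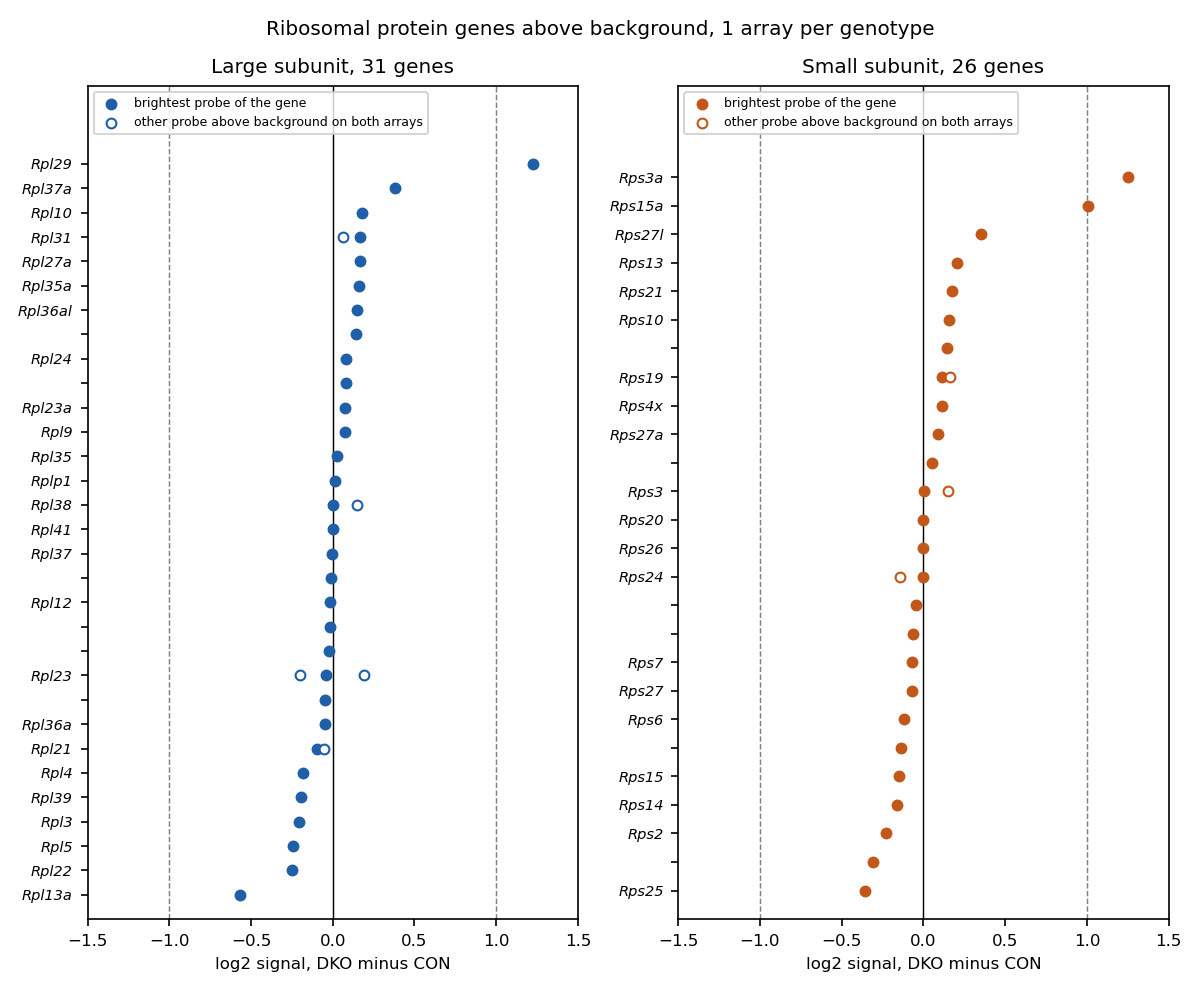
Log2 difference, DKO minus CON, of each ribosomal protein gene above background, with the large subunit (31 genes) on the left and the small subunit (26 genes) on the right. Filled points are the brightest probe of a gene, open points its other probes above background on both arrays, and dashed lines mark 2-fold, with names only for genes named in the text; Rpl29, Rps3a and Rps15a lie at or past the right dashed line, and 0 genes lie past the left one.

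The centre depends on how the arrays are scaled to each other. Quantile normalization gives a probe that holds the same rank on both arrays a difference of exactly 0, which was so for Rpl38, Rpl41, Rps20, Rps24 and Rps26. With median scaling the large subunit median was 0.13 and the small subunit median 0.14, and 42 of the 57 genes were higher and 15 lower in DKO. With cyclic loess, which removes a difference that varies with signal, the medians were 0.10 and 0.09, with 39 genes higher and 18 lower. The 255 other genes with a mean log2 signal of 12 or more had medians of 0.04 under median scaling and 0.02 under cyclic loess, and all genes had medians of -0.08 and -0.02. On the raw scale, the 78 probes carried 6.90% of the summed signal on the DKO array and 6.51% on the CON array. Their own summed raw signal was lower in DKO, at 724682.0 on DKO and 736743.6 on CON. The sum of all probes, background included, was also lower, at 10499435.0 on DKO and 11313233.5 on CON. Of all genes above background, 39.9% were higher in DKO under median scaling and 47.5% under cyclic loess. At a mean log2 signal of 12 or more, 36 of 45 members and 54.1% of the 255 others were higher under median scaling. Under cyclic loess 33 of the 45 members and 51.4% of the others were higher. Whether the family reads as level or as slightly higher in DKO is therefore set by the scaling, and no subunit median lay below 0.00. The largest was 0.143 (log2), for the small subunit under median scaling.

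**Figure D2:**
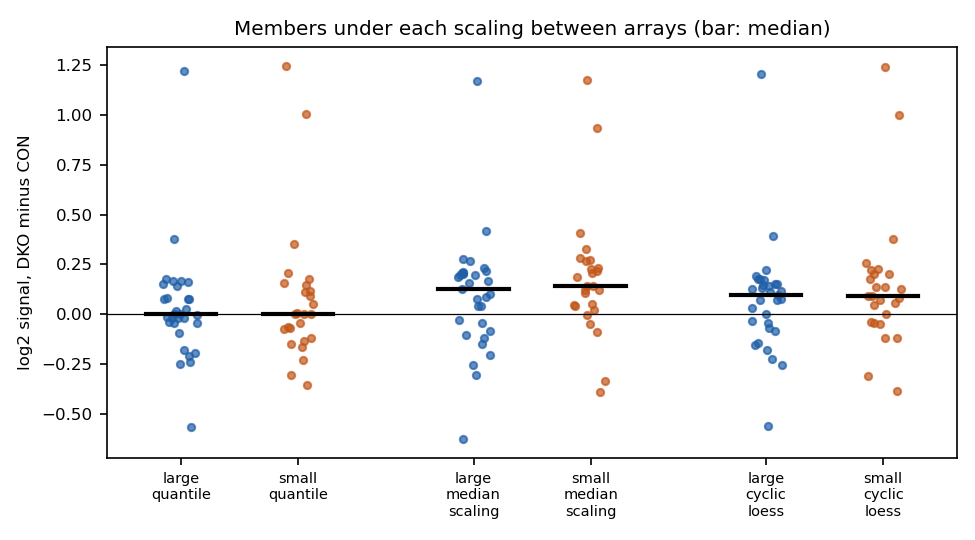
Log2 differences, DKO minus CON, of the 31 large and 26 small subunit genes under 3 scalings between the arrays, with 1 point per gene and a bar at the median. Medians sit at 0.00 under quantile normalization, at 0.13 and 0.14 under median scaling and at 0.10 and 0.09 under cyclic loess, while Rpl29 and Rps3a stay past 1 under all 3.

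Signal mattered for the spread. Of the 57 genes, 45 had a mean log2 signal of 12 or more, and their differences had an SD across genes of 0.15, against 0.29 for the 255 other genes at such signals. In that bright range 42 of the 45 ribosomal protein genes (93.3%) and 176 of the 255 others (69.0%) lay within 0.25 of no difference. Members made up 46 of the 322 probes with a mean of 12 or more and 19 of the 43 probes with a mean of 14 or more. The highest raw signal on an array was 25899.8 for DKO and 25756.4 for CON, both of a probe of Rps9. Rps9, Rpl34 and Fau are ribosomal protein genes outside the symbol rule and count among the 255 others. The brightest member on the DKO array, Rpl9, read 25787.5 on DKO and 24119.3 on CON. Whether signals this high understate differences was not tested. The 12 genes under a mean of 12 held all 3 genes past 2-fold and also Rpl13a, the lowest of the family.

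**Figure D3:**
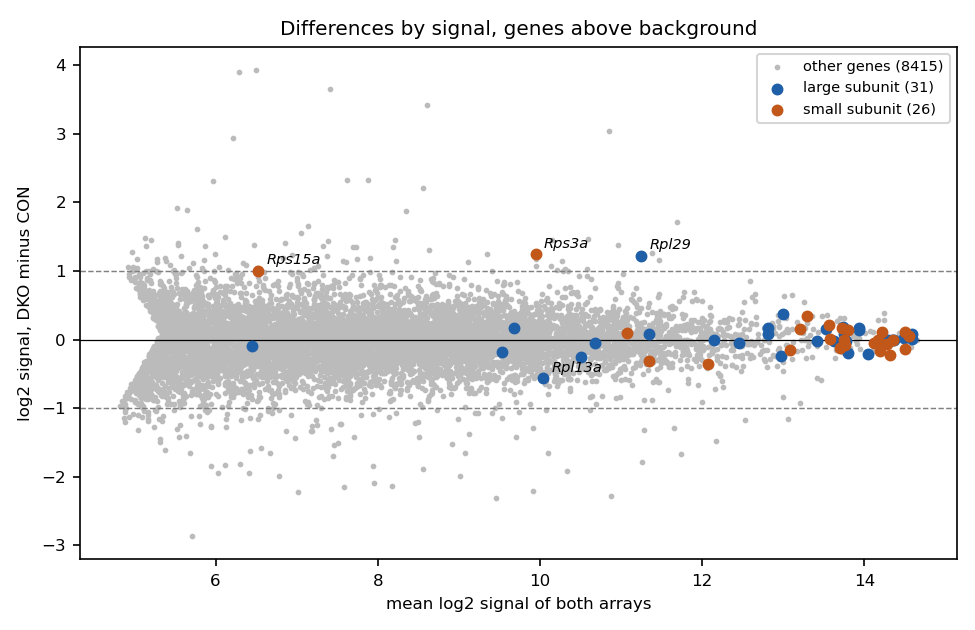
Difference (DKO minus CON, log2) against the mean log2 signal of both arrays for 8415 other genes above background (grey) and for the large (blue) and small (orange) subunit genes. Most ribosomal protein genes sit at the bright end in a narrow band around 0, and Rps3a, Rpl29, Rps15a and Rpl13a sit away from it at lower signal.

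At least 2-fold higher in DKO were 3 of the 57 genes, and 0 were at least 2-fold lower. Of all genes above background, 1.05% were higher in DKO by 2-fold or more, and 1.39% were lower by as much. The 3 genes were Rpl29, Rps3a and Rps15a. The next genes below the limit were Rpl37a at 0.38 and Rps27l at 0.35, so the 3 stood above the rest of the family by more than 0.5 (log2) under the main processing. For Rps15a this gap rests on the background correction. Without it Rps15a was at 0.45 and Rpl37a at 0.37, in the authors' deposited table they were at 0.52 and 0.32, and with an offset of 50 at 0.73 and 0.38.

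Rpl29 encodes a large subunit protein that is also known as a heparin-binding protein of the cell surface, and mice without it are small. Its brighter probe read a raw signal of 3601.7 on DKO and 1814.9 on CON, or 11.86 and 10.64 (log2), which is 2.33-fold higher in DKO. Its other probe read 1393.9 on DKO and 144.8 on CON, where it was not well above background with a detection p-value of 0.0376. Set against the lowest signal above background on the CON array (5.29), this probe was at least 35.1-fold higher in DKO. That bound depends on the background correction, and the same bound was 19.2-fold with a normexp offset of 50, 10.9-fold in the authors' deposited table and 9.85-fold without background correction. The probes thus shared a direction but not a size. Where they lie on the transcript is not known from the files.

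**Figure D4:**
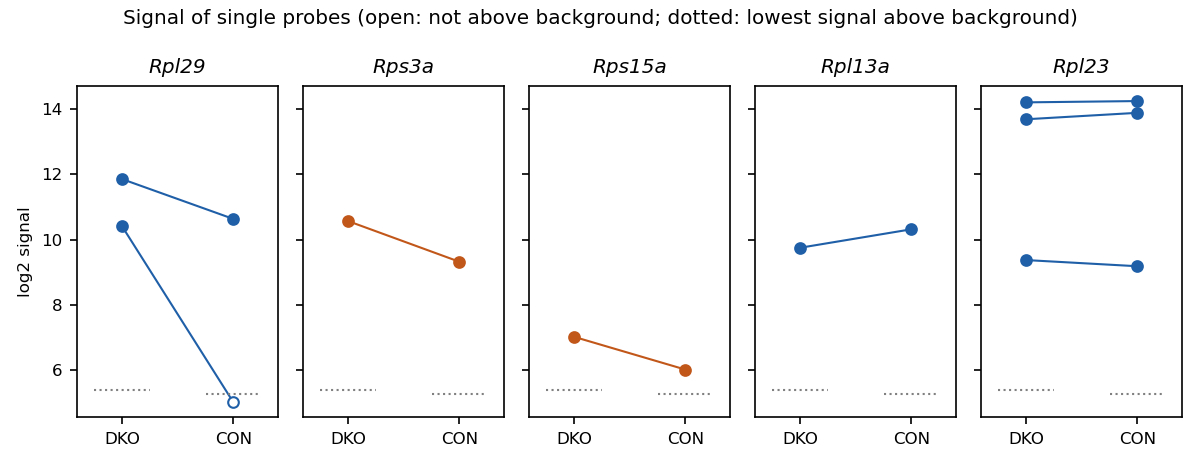
Log2 signal of single probes on the DKO (left) and CON (right) array, 1 line per probe above background on at least 1 array, for Rpl29, Rps3a, Rps15a, Rpl13a and Rpl23. The open point is the Rpl29 probe that was not above background on CON (detection p-value 0.0376), and dotted lines mark the lowest signal above background, 5.38 on DKO and 5.29 on CON.

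Rps3a, listed in current annotation as Rps3a1, encodes a small subunit protein that is also known as the Fos transformation effector. Its only probe read 1532.6 on DKO and 797.1 on CON (raw), or 10.57 and 9.32 (log2), which is 2.38-fold higher in DKO. Rps15a, a small subunit protein, had 1 probe that read 233.7 on DKO and 179.9 on CON (raw), or 7.02 and 6.02 (log2), which is 2.01-fold and at the edge of the limit. This probe was dim, and its difference was 0.45 without background correction and 0.52 in the authors' deposited table, against 1.12 and 1.05 for Rps3a and 1.17 and 1.09 for the brighter Rpl29 probe in the same order. Genes next to these 3 on the chromosome were looked at after the values were known, and those nearest on either side stayed under 2-fold. Dusp7 and Acy1 beside Rpl29 differed by 0.53 and -0.19, Arl6ip1 beside Rps15a by 0.20, and Lrba beside Rps3a1 by -0.35. A little farther out, Abhd14a near Rpl29 differed by -0.71 and Cd1d1 near Rps3a1 by 0.72, both at low signal.

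At the lower end, Rpl13a, a large subunit protein that also takes part in silencing inflammatory messages and is widely used as a reference gene in PCR, read 918.1 on DKO and 1469.7 on CON (raw), or 9.75 and 10.32 (log2). It was 1.48-fold lower in DKO, and its difference stayed between -0.63 and -0.48 under every setting tried. In the large subunit Rpl22 (-0.25), Rpl5 (-0.24), Rpl3 (-0.21) and Rpl39 (-0.19) came next. In the small subunit the lower end held Rps25, which some viral and cellular messages need for internal initiation, and Rps2, which lies at the entry of the mRNA channel. Rps25 read 3676.7 on DKO and 5293.9 on CON (raw) and differed by -0.36, and Rps2 read 19119.1 on DKO and 22352.9 on CON (raw) and differed by -0.23. For scale, these sizes can be set beside the spread between probes of a single gene, whose pooled SD was 0.24 (log2) over 1767 genes of the arrays with several probes.

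Rpl37a, a zinc finger protein of the large subunit, read 9129.4 on DKO and 7652.9 on CON (raw) and differed by 0.38, followed in that subunit by Rpl10 (0.18), Rpl31 (0.17), Rpl27a (0.17) and Rpl35a (0.16). In the small subunit Rps27l read 10990.8 on DKO and 9277.6 on CON (raw) and differed by 0.35, with Rps13 (0.21) and Rps21 (0.18) next. Rps27l is a relative of Rps27 known as a p53 target, and its partner Rps27 differed by -0.07 (0.05 with median scaling). Rpl36al, the relative of the X-linked Rpl36a, differed by 0.15 and Rpl36a by -0.05.

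Start site sequences are shown for members at either end of the family that the sequence table holds and for 3 members near 0, so that the TOP context can be read beside the values. Each run covers 15 bases before and 15 bases from the annotated start on the strand of the gene, and capitals mark each C followed by at least 4 C or T bases.
Rps3a1: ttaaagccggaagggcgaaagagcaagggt
Rps15a: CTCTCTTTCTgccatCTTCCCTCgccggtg
Rpl37a: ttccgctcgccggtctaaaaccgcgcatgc
Rpl13a: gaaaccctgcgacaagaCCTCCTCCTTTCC
Rps25: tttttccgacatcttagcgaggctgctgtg
Rpl38: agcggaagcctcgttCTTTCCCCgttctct
Rps6: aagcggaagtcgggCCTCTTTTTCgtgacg
Rpl35: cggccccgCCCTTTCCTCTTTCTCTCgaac
The sequences are RefSeq's, of build GRCm38.p6. On the minus strand lie those of Rps3a1 (chr3:86142654-86142683), Rps15a (chr7:118116133-118116162), Rpl13a (chr7:45128731-45128760), Rps6 (chr4:86857353-86857382) and Rpl35 (chr2:39005117-39005146). On the plus strand lie those of Rpl37a (chr1:72711245-72711274), Rps25 (chr9:44407699-44407728) and Rpl38 (chr11:114668565-114668594). Rps15a at 1.01 and Rpl13a at -0.57 both hold such a run, as do the 3 members near 0, and Rps3a1, Rpl37a and Rps25 do not in this window. Annotated starts can be some bases off, so an absent run says only that these letters are not in the window.

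The promoter table held 49 of the 63 genes. Of these, 33 (67.3%) had a C followed by at least 4 C or T bases, read on the strand of the gene, within the 30 bases around a start, against 43.4% of the 6757 genes above background that the table holds and 40.3% of all 27025 genes in it. The letters CCGGAAG, the core that ETS factors such as GABPA bind, stood on either strand of the 300-base promoter in 19 of the 49 (38.8%), against 20.8% of genes above background. The letters AAGATGGCG, a core known for YY1, stood on either strand in 3 of the 49 (6.12%), against 3.80%. These shares describe the promoters and bear on no difference between the genotypes.

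Several parts of the ribosome were followed by role. In the P stalk, the arm of the large subunit that recruits elongation factors, Rplp1 read 24731.0 on DKO and 24424.3 on CON (raw) and differed by 0.01, Rpl12 differed by -0.02 (0.08 with median scaling and 0.03 with cyclic loess), and Rplp2 was not well above background. Rplp0, the base of the stalk, is listed under an older name and differed by -0.49. Of the pair Rpl5 and Rpl11, which carry the smallest ribosomal RNA and bind the p53 regulator Mdm2, Rpl5 read 7113.9 on DKO and 9127.1 on CON (raw), and Rpl11 had no probe under its symbol. Along the exit tunnel and its rim, Rpl39 differed by -0.19, Rpl4 by -0.18, Rpl23a by 0.08 and Rpl35 by 0.03. Around the decoding site and the mRNA channel of the small subunit, Rps2 differed by -0.23, Rps15 by -0.15 and Rps3 by 0.01. Rps6, the substrate of the S6 kinases below mTOR, read 12530.1 on DKO and 14085.5 on CON (raw) and differed by -0.12. Rps27a, which is made as a fusion with ubiquitin, differed by 0.09. None of these groups held a member past 2-fold.

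Genes mutated in the inherited anaemia of Diamond and Blackfan were close to level. Of 8 such members, 3 were higher, 3 lower and 2 equal, from -0.24 (Rpl5) to 0.16 (Rpl35a), with Rps10 at 0.16 and Rps19 at 0.12. Among genes whose mouse mutants show in skin, coat or tail, Rps19 read 24167.0 on DKO and 22496.7 on CON (raw), Rps20 read 18552.0 on DKO and 18357.1 on CON and differed by 0.00, Rpl24 (the belly spot and tail gene) differed by 0.08 and Rpl38 (the tail short gene) by 0.00.

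The pools differed in transcripts of the Y chromosome. The brightest Ddx3y probe read 10.31 on DKO and 6.89 on CON, and Eif2s3y, at 8.46 on DKO, did not pass the detection limit on CON. Xist, the RNA of the inactive X chromosome, was above background on both arrays, and its probes differed by -0.24 and -1.21. The X-linked members differed by 0.18 (Rpl10), 0.11 (Rps4x), -0.05 (Rpl36a) and -0.19 (Rpl39), 2 higher and 2 lower, all within the range of the other members. Sex of the pools and genotype cannot be told apart for any of the values here.

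Probes of a single gene disagreed most for Rpl29, with 1.22 for the brighter and the bound above for the other. Of the 12 genes with several probes, 7 had at least 2 above background on both arrays, and in 0 of the 7 did the differences span 0.5 or more, against 17.7% of the 1767 such genes on the arrays. The 1767 genes are of all signal levels and were not matched to the 7 by signal, and 7 genes are too few to read a contrast from. The pooled SD between probes was 0.12 over the 7 genes. The widest span was that of Rpl23, whose 3 probes above background differed by -0.20, -0.04 and 0.19. Those of Rpl38 differed by 0.00 and 0.15, of Rps3 by 0.01 and 0.15, of Rps24 by 0.00 and -0.14, and of Rpl31 by 0.17 and 0.06. Rps19 and Rpl21 spanned 0.04 each. Rpl29 is outside this count, because its second probe was above background on DKO alone, so its own difference keeps it out. Without the filter on dim probes, 2 of the 12 genes spanned 0.5 or more. In Rpl27a, Rpl37, Rpl4 and Rps27a the other probes were not well above background on either array, nor was a further probe of Rpl23.

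Some ribosomal protein genes stand under older names in the tables and fall outside the symbol rule. Rplp0, listed as Arbp and much used as a reference gene, read 565.2 on DKO and 844.9 on CON (raw) by the detected one of its probes. Rps9 had 4 probes that differed by 0.00, 0.06, -0.11 and -0.59, a span of more than 0.5, and the probe at -0.59 read 1793.8 on DKO and 2959.0 on CON (raw). Rpl34 differed by 0.02, the ubiquitin-like fusion Fau by -0.02 and Rack1 by 0.07, and both Rpsa probes (listed as Lamr1) were not well above background. Rpl22l1, the relative of Rpl22, read 170.4 on DKO and 158.8 on CON (raw), close to background, and differed by 0.47, beside -0.25 for Rpl22. With all genes taken by current symbol, 64 were above background, 30 of them higher and 28 lower in DKO. The symbol alone also brings in Rps4l, a transcribed pseudogene, and Rps19bp1 and Rpl7l1, so not all 64 are ribosomal protein genes.

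The wider machinery of translation was read from lists of related genes. Of 29 translation factors above background, 11 were higher and 17 lower, 0 of them by 2-fold, with a median of -0.05. Eif2s3x, the X-linked gene for the gamma subunit of the initiation factor that carries the initiator tRNA, was lowest at -0.72 (9.20 on DKO and 9.92 on CON). Its Y-linked partner Eif2s3y is the gene named above that was above background on DKO alone. Eif4a2, an RNA helicase of initiation, differed by 0.47. Eif3h was not well above background on CON, and set against the lowest signal above background there its difference was at least 0.42 (0.13 without background correction). Eif3j1 was not well above background on DKO, and its bound was -0.13, as was its value without background correction.

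Ribosome assembly factors had a median of -0.04 over 27 genes, with 12 higher and 15 lower. Tcof1, the nucleolar treacle protein that supports transcription of ribosomal RNA, read 5.77 on DKO and 7.35 on CON and was 2.99-fold lower, the only one past 2-fold, and its difference was -0.73 without background correction and -0.84 in the authors' deposited table, both under 2-fold. Nop56, a core protein of the particles that methylate ribosomal RNA, differed by 0.63, Lsg1, a GTPase of late large subunit maturation, by 0.54, and Gnl3 (nucleostemin) by 0.45. Of 7 genes of RNA polymerase I and its factors, 2 were higher and 5 lower, with a median of -0.26. Ubtf, the upstream binding factor of that polymerase, read 8.67 on DKO and 9.73 on CON and was 2.09-fold lower. It was under 2-fold without background correction (-0.89) and in the authors' deposited table (-0.87). Polr1c and Polr1a differed by -0.29 and -0.26. Taf1c was not well above background on CON, with a bound of 0.22 (0.17 without background correction). A median over 7 genes rests on few values.

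Importers and chaperones of ribosomal proteins had a median of -0.12 over 9 genes, with Ipo5 at -0.49, Heatr3 at -0.45, Ipo4 at 0.35 and Aamp at -0.18. Of 14 genes of mTOR and MYC control on the array, 8 were above background, 5 of them higher and 3 lower, with a median of 0.21. Myc and Mycn were not among the 8, and Max differed by -0.20. The list holds activators and repressors together, so its median gives no direction of signalling. Eif4ebp1, the repressor of cap-dependent initiation, differed by -0.62, Tsc2 by -0.44 and Mtor by 0.36. Rps6kb2 was not well above background on CON, with a bound of 0.39 (0.18 without background correction and 0.25 in the authors' deposited table). Mitochondrial ribosomal protein genes, which build a separate ribosome, had a median of 0.01 over 68 genes, with 35 higher, 33 lower and 0 past 2-fold. Their lowest and highest were Mrps6 at -0.44 and Mrpl4 at 0.53, and their SD of 0.20 lies below the 0.31 of the cytosolic genes, which is 0.15 among the bright ones.

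**Figure D5:**
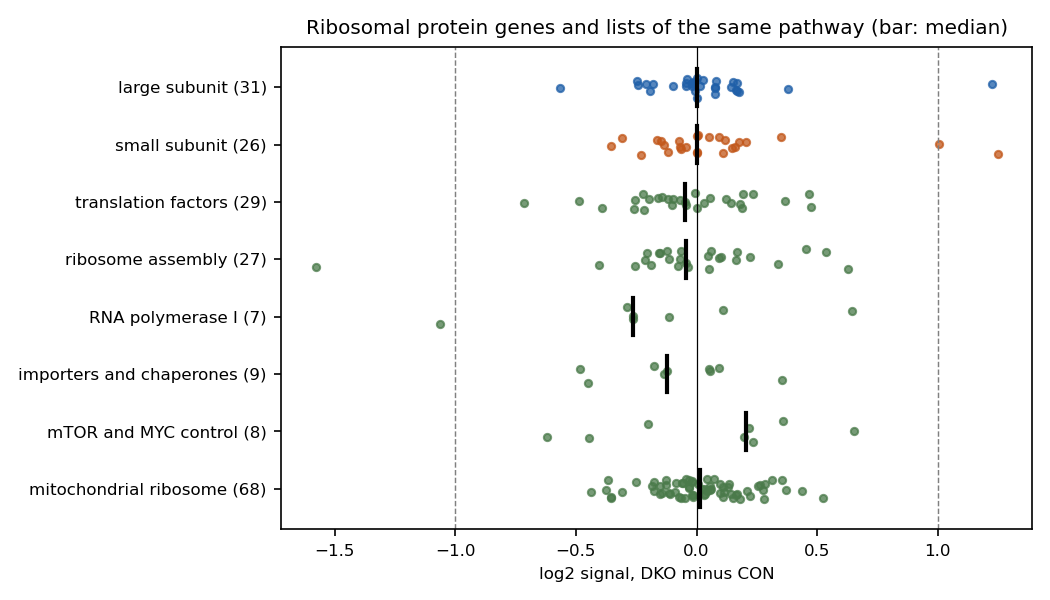
Log2 differences, DKO minus CON, of the large and small subunit genes (top rows) and of 6 lists of the same pathway, with 1 point per gene, a bar at the median and dashed lines at 2-fold. Numbers in brackets are genes above background, the points past the left line are Tcof1 and Ubtf, and genes dim on 1 array are drawn at their measured value, not at a bound.

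Cell markers give the tissue context of these values. Keratinocyte markers were above background on both arrays (6 of 6) and differed by -0.29 (Trp63) to 0.64 (Krt1), with summed signals of 85398 on DKO and 82780 on CON. Of the 6 dermal fibroblast markers, Dcn was above background on both arrays (raw 454.1 on DKO and 469.1 on CON, a difference of 0.13). A second, dimmer Dcn probe, also above background on both, differed by -0.15. Col1a1, Col1a2, Col3a1, Lum and Pdgfra were not above background on either array. The markers of skeletal muscle and endothelium were not well above background on either array. Hair follicle markers were lower in DKO in 7 of 7 genes, from -2.31 to -0.999, with a summed signal of 6662 on DKO and 21027 on CON. Markers of dividing cells were lower in 6 of 6 genes, from -0.89 to -0.08, with sums of 2585 on DKO and 3725 on CON. Markers of melanocytes were lower in 4 of 4 genes (sums of 2435 on DKO and 3212 on CON) by the brightest probe, though a second Pmel probe differed by 0.26, against -0.61 for the first, and a dimmer Tyrp1 probe by 0.13. Those of Langerhans cells were higher in 3 of 3 (sums of 4453 on DKO and 3816 on CON), and T cell markers were mixed, 2 higher and 3 lower. Fewer cells of a type and less RNA per cell cannot be told apart in such pools, and the part of these shifts in the ribosomal protein values was not tested. All 3 Vdr probes were above background on both arrays, with differences of -0.12, -0.24 and -0.82, and the single Casr probe (listed as Gprc2a) passed the detection limit on neither, so the arrays do not check the deletions.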

How the data were processed

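Epidermal RNA of DKO and CON mice was measured on 2 Illumina arrays. For each probe the deposited raw table holds an intensity without background subtraction, and the submitters' processing notes name GenomeStudio 2011.1. The authors deposited a detection p-value beside it, and a second table of normalized linear intensity. For the method behind that table the sources used here give no name, but sorted values of the 2 arrays differ in it by at most 0.9. Per the file headers, a line above the column names ties each array to its genotype.

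In R 4.3.3, limma 3.58.1 was used for background correction (normexp from the detection p-values, offset 16) and quantile normalization, and values were put on the log2 scale. The steps were tested on simulated data with known changes of 2-fold or more in probes well above background. Dim probes and smaller differences were not covered by that test. On the DKO array 10441 probes (40.6%) and on the CON array 10760 (41.9%) were above background. The number of arrays limits the precision. Probes were named through RefSeq (GRCm38.p6) by gene identifier, accession or symbol, which matched all 78 member probes.

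With 1 array per group, limma's test could not be run, and genes were counted by a 2-fold rule. Bounds use the lowest signal above background on the dim array. Named genes are members past 2-fold, the 5 highest and 5 lowest per subunit, members with probes that disagree, role lists, X-linked members and up to 4 genes per pathway list, and a few that this rule takes are not reported here. Members and lists were chosen with earlier results of these data known.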

Additional observations from a re-analysis of the deposited data

How the results depend on the processing

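The count of 3 members at least 2-fold higher became 2, without Rps15a, with no background correction, an offset of 50, median scaling, cyclic loess and the authors' deposited table, and 0 members were at least 2-fold lower under every setting. The medians of 0.00 moved to 0.13 (large) and 0.14 (small) with median scaling and to 0.0974 and 0.0915 with cyclic loess, and members lower by any amount moved from 26 to 15 with median scaling; median scaling also put the assembly list at -0.12 and the mitochondrial list at -0.0518. The assembly list was at 0.0477 when detected probes of a gene were averaged. Genes with disagreeing probes numbered 2 without the filter on dim probes and 1 at a detection p-value under 0.05, and 1 with members by current symbol (Rps9). The last setting, bounds on dim values, and leaving out Rpl29, Rps3a and Rps15a (which leaves 0 members past 2-fold) were chosen after seeing the data. Of the settings tried on 42 named members, 4 (filters and bounds on dim probes) changed no value by construction. Of 252 values under the 6 others, 248 moved by less than the SD between probes over all genes (0.24), and 4 moved by more. That SD is wider than the 0.12 between member probes, so Rps24 at 0.21 with median scaling, against 0.00, counts as not moved. Averaging of probes, which is among the 6, can change only genes with several probes above background. Rpl29, Rps3a, Rps15a and Rpl13a kept their sign under every setting, but most settings could not change it. Quantile normalization sets the sign by the rank of a probe on each array, which background correction and its offset keep. The authors' deposited table, with nearly equal sorted values on both arrays, also gave 26 members higher and 26 lower. A sign could turn mainly with median scaling and cyclic loess. Among the small negative differences that turned positive were those of Rpl12 (0.08), Rps14 (0.02), Rps27 (0.05) and Rps7 (0.12) with median scaling, and of Rpl12 (0.03) and Rps7 (0.06) with cyclic loess. The 4 values that moved by more than the SD were Rps15a at 0.45, 0.73 and 0.52 (no background correction, offset 50, the authors' table) and Rpl29 at 3.31 with its probes averaged. Of 256 values of 26 pathway genes, those under the filter settings included, 16 moved by the same measure, all of Eif3h, Eif3j1, Rps6kb2, Taf1c and Tcof1. Counts over all genes at 2-fold were 23 higher and 27 lower without background correction and 24 and 28 in the authors' deposited table, 43 and 58 at offset 50 and 57 and 77 with both arrays above background, against 89 and 118. No paired analysis was possible because each genotype has 1 array, and leaving out a replicate could not be run. Dim probes limit what can be read for the 6 members not above background.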
